A study of Homo sapiens with 64 samples.

Results

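The genes described here mark where a carcinoma cell stands between an epithelial and a mesenchymal state. They are the transcription factors SNAI1, SNAI2, ZEB1, ZEB2 and TWIST1, the mesenchymal genes VIM, CDH2 and FN1, and the epithelial genes CDH1 and EPCAM. The 10 genes were taken by name from the deposited table of raw counts of the 1-day cell culture experiment, and all 10 were found among its 60649 genes. The cells were 4 established lines of human non-small cell lung carcinoma (H1755, H1703, H838 and H460), each grown in RPMI medium with serum and each a single line rather than a set of donors. Treated cells received 5 µM MYCi975, a compound that inhibits MYC, or 25 µM TMP195, which inhibits histone deacetylases of class IIa, or both (the combination), for 24 hours, and the control cells of each line received vehicle (DMSO). Each of the 16 groups held 4 libraries of total RNA, for 64 libraries with 17352066 to 34236552 counted reads each. Levels are CPM, read counts scaled to the TMM-adjusted library size, given as mean ± SD with n = 4 unless stated, and changes are log2 fold changes ± standard error from 4 libraries against 4. A gene was called where the Benjamini-Hochberg adjusted p of edgeR's quasi-likelihood test was below 0.05 over all genes tested, and every adjusted p in the text is from that test unless another tool or fit is named.

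Epithelial cells are joined by E-cadherin, the product of CDH1, at adherens junctions. SNAI1, SNAI2, ZEB1, ZEB2 and TWIST1 encode factors that bind E-boxes and are known as repressors of CDH1 or as inducers of the mesenchymal state. In that state cells make vimentin (VIM), N-cadherin (CDH2) and fibronectin (FN1) and lose E-cadherin and EPCAM, and in lung carcinoma lines a high ZEB1 level is a common mark of it. The microRNAs of the miR-200 family pair with ZEB1 and ZEB2 messages and hold them down, while ZEB factors repress the genes of that family, so that the pair forms a double-negative loop.

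The family and the E-boxes are shown because the loop links ZEB1, the most uniformly high of the 5 factors in these lines, to the epithelial side. The mature microRNAs are from RefSeq (GRCh38.p14), 5′ to 3′, with the seed, bases 2 to 8, in capitals. The first 3 share 1 seed and the last 2 share another that differs from it at a single base.
hsa-miR-200b-3p: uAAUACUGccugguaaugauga
hsa-miR-200c-3p: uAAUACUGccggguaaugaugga
hsa-miR-429: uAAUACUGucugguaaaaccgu
hsa-miR-200a-3p: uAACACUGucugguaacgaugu
hsa-miR-141-3p: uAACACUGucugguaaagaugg
Mature microRNAs were not measured by these libraries, and the host gene of miR-200c and miR-141, MIR200CHG, was near the detection limit. It had 48 reads over all 64 libraries, at most 3 in any library, and none in 32 of them. By line the reads were 6 in H1755, 15 in H1703, 9 in H838 and 18 in H460.

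E-boxes of the Snail and ZEB type were looked for as CACCTG or its reverse complement CAGGTG, which covers both strands, in RefSeq windows of 300 bases that run from 250 bases before to 50 after a gene's start. Below, with the E-boxes in capitals, are the MIR200CHG window at chr12:6962995-6963294 (plus strand), which holds 1, and the ZEB1 window at chr10:31318966-31319265 (plus strand), which holds 3, both in GRCh38.p14.
MIR200CHG: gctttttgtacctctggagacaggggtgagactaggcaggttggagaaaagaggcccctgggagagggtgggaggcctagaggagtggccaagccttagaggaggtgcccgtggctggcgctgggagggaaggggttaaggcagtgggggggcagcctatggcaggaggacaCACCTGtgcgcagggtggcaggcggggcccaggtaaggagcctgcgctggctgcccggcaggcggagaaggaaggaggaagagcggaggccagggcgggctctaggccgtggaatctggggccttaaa
ZEB1: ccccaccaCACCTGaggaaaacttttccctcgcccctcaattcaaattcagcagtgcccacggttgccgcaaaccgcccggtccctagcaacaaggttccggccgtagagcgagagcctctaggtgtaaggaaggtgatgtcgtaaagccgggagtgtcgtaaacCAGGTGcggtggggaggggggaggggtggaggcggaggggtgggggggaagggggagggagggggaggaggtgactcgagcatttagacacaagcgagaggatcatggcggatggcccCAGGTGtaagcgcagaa
Of 35116 windows over all genes, 20.6% held at least 1 such E-box and 0.635% held 3 or more. ZEB1 had 7 windows, of which 2 held the motif. The ZEB1 window shown was picked as that with the most of the 7, while the shares above are per window. Of the 10 members, ZEB1, ZEB2, VIM, FN1 and CDH2 were matched to windows by symbol, and the motif was absent from the windows of ZEB2, VIM, FN1 and CDH2. These matches describe letters in a window and say nothing of binding.

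The libraries differed in ways that treatment does not explain, and several members moved with them. They were put into 3 sets, which no label names. A set of 7 was told by EEF1G, a gene of a translation elongation factor that was counted at 639 to 759 CPM in 7 H460 libraries and at 0 in the other 57. A second set was told by the replicate number 4 or a different spelling of the replicate in the column name. Its 21 libraries, which are replicate 4 of every group, H838 TMP195 replicates 1 to 3, H838 MYCi975 replicate 3 and H1703 combination replicate 2, had 5.12% to 10.7% mitochondrial ribosomal RNA, a range that meets the 10.1% to 19.1% of the 36 remaining libraries, called the first set, against 13.9% to 16.4% in the 7 of H460. All 4 H838 TMP195 libraries are thus of the second set, so that TMP195 there can be set against vehicle of the same set in replicate 4 only. Of H460 the first set holds replicate 3 of each group and combination replicate 2. Results from the first set alone thus rest on 1 library each of H460 vehicle, MYCi975 and TMP195. The part of these sets in the results was not tested apart from the fits with a term for them. In H1755 replicate 4 stood apart in every group, with FN1 at 6.24 to 7.57 times the mean of replicates 1 to 3, CDH1 at 3.31 to 5.25 times, EPCAM at 2.53 to 3.24 times, CDH2 at 1.77 to 2.06 times and TWIST1 at 0.448 to 0.647 times. In H838 replicate 4 had CDH1 at 2.16 to 3.91 times, ZEB2 at 0.512 to 0.649 times and CDH2 at 0.296 to 0.443 times the mean of the others. The H838 TMP195 library of replicate 1 has a different line tag in 2 of its labels, and its title set its group. Its ZEB2 level of 66.6 CPM stood beside 70.6, 63 and 43.3 CPM in the other 3 libraries of its group, against 3.37 to 4.99 CPM in H1703, and TWIST1 and FN1, at 0 and 24.3 CPM, set it apart from H1755 and H460.

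As a check of the cell type, the simple-epithelium keratins KRT7, KRT8, KRT18 and KRT19 all averaged above 1 CPM in vehicle cells of every line. Over all libraries their summed level was 929 to 1349 CPM in H1755, 32.1 to 61.4 CPM in H1703, 469 to 1525 CPM in H838 and 2482 to 3488 CPM in H460. None of the 4 lung epithelium markers (NKX2-1, SFTPB, SFTPC and NAPSA) averaged above 1 CPM in any line, and the 5 fibroblast markers summed to at most 31.3 CPM in any library. Of the 3 leukocyte markers, CD68 reached 21 to 32.3 CPM in the 7 H460 libraries with EEF1G counts, against 0.148 to 0.691 CPM in the other 9 H460 libraries. The remaining leukocyte markers, PTPRC and CD3E, averaged 0.0739 and 0 CPM in H460 vehicle cells. CD68 thus followed the library set there, and why was not tested.

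At baseline the 4 lines were all low in the epithelial genes CDH1 and EPCAM. They differed in which mesenchymal genes they carried, and also, within that low range, in CDH1 and EPCAM. H1755 had the highest vehicle levels of SNAI2, CDH2, VIM, TWIST1 and EPCAM, and H460 the highest FN1. H1703 had TWIST1 and VIM with almost no SNAI2 and little ZEB2, and H838 had ZEB1 and ZEB2 with the lowest VIM. Over the 6 pairs of lines, 49 of 60 member tests were called, and in 48 of the 60 the vehicle libraries of the 2 lines did not overlap. The background was high. Of all genes tested, 49.5% to 58.1% did not overlap in a pair of lines, and 62.7% were called between H460 and H838, 61.6% between H460 and H1703, 60.2% between H460 and H1755, 59.7% between H838 and H1703, 55.9% between H838 and H1755 and 58.8% between H1703 and H1755. EPCAM, SNAI2 and VIM were called in all 6 pairs, ZEB1, ZEB2, FN1, CDH1 and CDH2 in 5, TWIST1 in 4 and SNAI1 in 2.

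**Figure D1:**
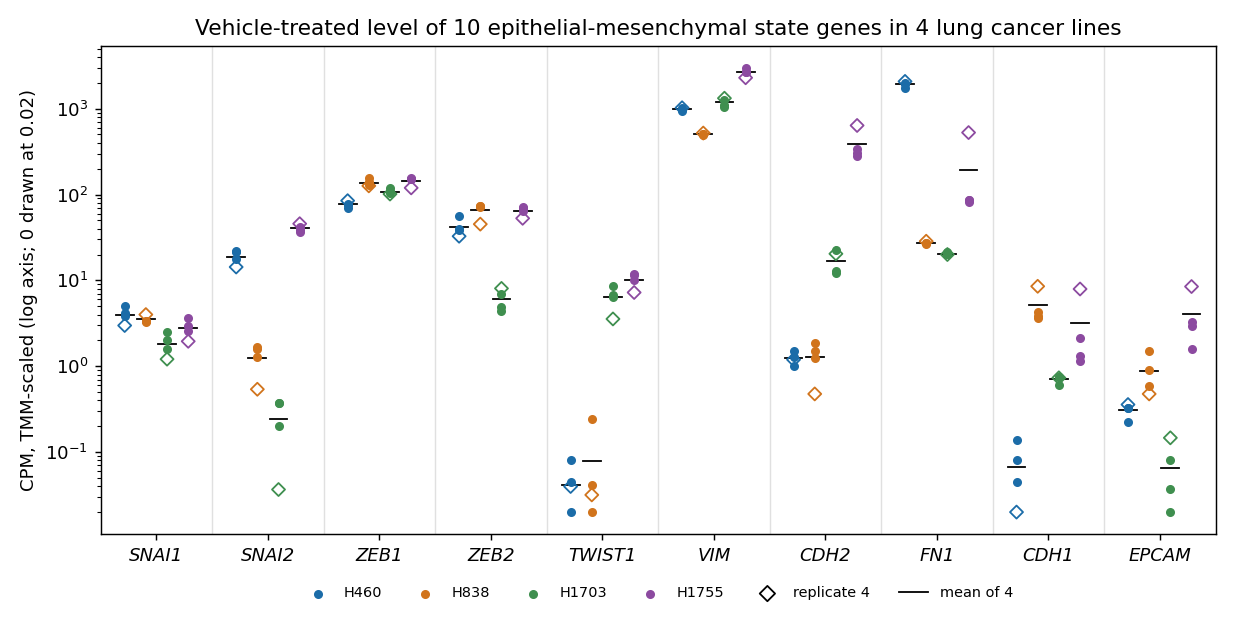
Level of each of the 10 genes in vehicle-treated cells of the 4 lines, in CPM on a log axis (values of 0 drawn at 0.02). Filled points are replicates 1 to 3, open diamonds replicate 4, and bars the mean of 4. FN1 spans from about 20.4 CPM in H1703 to 1940.1 CPM in H460, while ZEB1 stays between 76.6 and 144 CPM.

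Among the factors, ZEB1 (chr10:31318495-31529814, plus strand, GRCh38), a zinc finger homeodomain repressor of CDH1, varied least. Vehicle libraries had 78.1, 74.8, 68.9 and 84.7 CPM in the H460 line, 127, 154, 139 and 126 CPM in the H838 line, 118, 103, 110.5 and 101 CPM in the H1703 line and 150.5, 152, 155 and 119 CPM in the H1755 line. H460 lay below the 3 other lines without overlap, and H838 and H1755 overlapped and were not called apart (log2 fold change of H838 over H1755 -0.06 ± 0.10, adjusted p = 0.596).

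ZEB2 (chr2:144364364-144524583, minus strand), the related factor, was the line-specific member of the pair. It averaged 66.3 ± 14.1 CPM in H838, 64.6 ± 8.43 CPM in H1755 and 41.5 ± 9.86 CPM in H460, against 6.08 ± 1.70 CPM in H1703, where the 4 libraries had 4.93, 4.43, 6.90 and 8.06 CPM. H1703 was lower than each other line without overlap, by 2.77 ± 0.22 relative to H460 (log2, H460 over H1703, adjusted p = 7.21e-09). H838 and H1755 could not be told apart (0.05 ± 0.20, adjusted p = 0.851). The H460 libraries overlapped those of both, and ZEB2 was called between H460 and H1755 (-0.63 ± 0.20, adjusted p = 0.012). In the first library set alone, which holds 1 H460 vehicle library, the difference was smaller (-0.26).

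SNAI2 (chr8:48917604-48921740, minus strand), which encodes Slug, had the widest span of the factors besides TWIST1. The vehicle libraries of H1755 had 36.6, 39.1, 41.8 and 45.7 CPM and those of H460 21.7, 18, 21.3 and 14.3 CPM, while H838 had 1.28, 1.66, 1.57 and 0.539 CPM and H1703 0.374, 0.373, 0.200 and 0.0366 CPM. The order H1755, H460, H838, H1703 held without overlap between any 2 lines, and all 6 differences were called. In H1703 the SNAI2 reads numbered 10, 9, 5 and 1, close to the detection limit of 3 counts.

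SNAI1 (chr20:49982999-49988886, plus strand), the founding Snail factor, was low in all lines. It averaged 4.0 ± 0.828 CPM in H460, 3.50 ± 0.330 CPM in H838, 2.76 ± 0.700 CPM in H1755 and 1.83 ± 0.545 CPM in H1703. Only H460 over H1703 (1.13 ± 0.24, adjusted p = 0.000658) and H838 over H1703 (0.94 ± 0.24, adjusted p = 0.00299) were called.

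TWIST1 (chr7:19020991-19117672, minus strand), a basic helix-loop-helix factor, split the lines into 2 pairs. It had 10.1, 11.9, 11.4 and 7.23 CPM in the vehicle libraries of H1755 and 6.84, 6.46, 8.50 and 3.55 CPM in those of H1703. In H460 and H838 the 4 vehicle libraries held 4 and 7 TWIST1 reads in all. H1703 and H1755 overlapped and were not called apart (-0.67 ± 0.33, adjusted p = 0.092), nor were H460 and H838.

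Of the mesenchymal genes, VIM (chr10:17228259-17237593, plus strand), the intermediate filament protein of mesenchymal cells, was abundant everywhere. Vehicle means were 2649 ± 276 CPM in H1755, 1179.9 ± 135 CPM in H1703, 996 ± 39.3 CPM in H460 and 507 ± 11.5 CPM in H838. No 2 lines overlapped, and all 6 pairs were called. The smallest difference, H460 over H1703 (-0.25 ± 0.09, adjusted p = 0.0255), was not called under several alternatives. These were no filter (adjusted p = 0.059), the library set term (0.0784) and 1 fit of all 64 libraries (0.0508). It was not called either without any 1 of H1703 vehicle replicates 1 and 4 or H460 vehicle replicates 2 and 3 (log2 fold changes -0.22, -0.20, -0.22 and -0.22). In the first library set alone, which holds 1 H460 vehicle library, the VIM difference was -0.16.

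CDH2 (chr18:27950966-28177446, minus strand), N-cadherin, was highest in H1755. The H1755 vehicle libraries had 284, 305, 339.5 and 637 CPM, and those of H1703 had 22.5, 12.9, 12.3 and 20.4 CPM. H460 and H838 averaged 1.24 ± 0.217 and 1.27 ± 0.589 CPM and were not called apart (0.02 ± 0.41, adjusted p = 0.967). H1703 was lower than H1755 by -4.52 ± 0.32 on the log2 scale (adjusted p = 1.72e-09).

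FN1 (chr2:215360440-215436172, minus strand), which encodes the matrix protein fibronectin, was highest in H460. The H460 vehicle libraries had 1759.7, 1945, 1979 and 2076 CPM. H1755 had 85.2, 81.2, 86.7 and 526 CPM, with replicate 4 far above the others, and a mean of 84.4 CPM over replicates 1 to 3. H838 had 26.4, 27, 27.3 and 28.6 CPM and H1703 20.1, 21.4, 20.03 and 19.999 CPM. H460 exceeded H838 by 6.15 ± 0.55 (adjusted p = 4.13e-08) and H1755 by 3.31 ± 0.48 (adjusted p = 1.48e-05) on the log2 scale. H838 and H1703 did not overlap but were not called apart (0.42 ± 0.46, adjusted p = 0.447), and without H1755 vehicle replicate 4, which shares the estimate of the spread, they were (0.42, adjusted p = 4.53e-05).

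The epithelial genes were low throughout. CDH1 (chr16:68737225-68835548, plus strand) had 4.30, 3.88, 3.68 and 8.53 CPM in H838 vehicle libraries, 2.16, 1.33, 1.16 and 7.93 CPM in H1755, 0.598, 0.745, 0.758 and 0.733 CPM in H1703 and 0.0819, 0.0453, 0.138 and 0 CPM in H460, where it rested on 6 reads. H838 and H1755 overlapped through H1755 replicate 4 and were not called apart (0.68 ± 0.49, adjusted p = 0.254), and without H1755 vehicle replicate 4 H838 was higher (1.73, adjusted p = 0.000684). The remaining 5 pairs were called without overlap.

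EPCAM (chr2:47345158-47387601, plus strand), an epithelial adhesion molecule, had 3.31, 1.57, 2.96 and 8.47 CPM in H1755 and averaged 0.869 ± 0.459 CPM in H838, 0.308 ± 0.0570 CPM in H460 and 0.0659 ± 0.0628 CPM in H1703. All 6 pairs were called without overlap, although the calls of H460 against H838 (-1.45 ± 0.56, adjusted p = 0.0333) and of H460 against H1703 (2.11 ± 0.79, adjusted p = 0.0276) rested on 29 reads in H460 and were lost when single vehicle libraries were left out. H460 replicates 1, 2 and 3 and H838 replicates 1 and 2 did so for H838, and H1703 replicates 1 and 2 and H460 replicate 4 for H1703. Without H838 vehicle replicate 2 the EPCAM difference of H460 from H838 was -1.08.

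Set against each other per kilobase of exon, the members ranked differently in each line. In H460 VIM (193 CPM per kilobase) and FN1 (112) led, ahead of ZEB1 (8.86) and SNAI2 (5.55). In H1755 VIM (514 CPM per kilobase) was followed by CDH2 (79.1), ZEB1 (16.7) and SNAI2 (12). In H838 and H1703 VIM (98.2 and 229 CPM per kilobase) was followed by ZEB1 (15.8 and 12.5), with every other member at most 3.44. CDH1 stayed at or below 0.825 CPM per kilobase in every line, so VIM exceeded CDH1 per length in all 4.

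Several members overlap genes on the opposite strand, and the strand setting of the counting is not stated, so reads from a member and its antisense partner cannot be told apart. AL133415.1 and VIM-AS1 held 29.8% and 19.5% as many reads as VIM over all libraries, AC099314.1 23.1% as many as CDH1, AC003986.2 7.61% as many as TWIST1 and ZEB1-AS1 3.83% as many as ZEB1. ZEB2-AS1 and AC110015.1 stayed below 1% of ZEB2 and CDH2.

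With treatment, few members were called in the fit as designed, which has no term for the replicate number, and each of those calls belonged to SNAI2, FN1, ZEB1 or VIM. With the number as a block more were called, in H1755 above all. SNAI2 fell in H1755 with each of the 3 treatments. FN1 rose in H1703 with each treatment and in H460 with the combination, ZEB1 rose in H1703 with the combination, and VIM rose slightly in H460 with the combination. The filter on low counts left 10 members tested in H1755, 8 in H1703, 9 in H838 and 7 in H460, or 34 tests per treatment. TWIST1, CDH1 and EPCAM were not tested in H460, TWIST1 not in H838, and SNAI2 and EPCAM not in H1703. Of the 34 tests, 2 were called with MYCi975, 2 with TMP195 and 5 with the combination. The 3 treatments share the vehicle libraries of each line, so their changes are not independent of each other. In these bulk libraries a smaller share of cells with a gene and less of its RNA per cell cannot be told apart.

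The share of all genes called set the background. With MYCi975 it was 0.0643% in H1755, 10.2% in H1703, 0% in H838 and 1.09% in H460. With TMP195 it was 0.43% in H1755, 9.65% in H1703, 0.572% in H838 and 1.13% in H460. With the combination it was 1.69% in H1755, 38.3% in H1703, 3.24% in H838 and 15.7% in H460. Against these, in the fit without a block, the combination changed 1 of 10 members in H1755, 2 of 8 in H1703, 0 of 9 in H838 and 2 of 7 in H460, so the share of members called in H1703 was below that of all genes. Replicate numbers are said to pair libraries where they passed a correlation check, whose limits are given with the processing. Where the replicate numbers paired the libraries, the block called 6 of 10 members in H1755 (24.2% of all genes) and 2 of 9 in H838 (14.9%) with the combination. With MYCi975 it called 3 of 10 in H1755 (9.23%), 3 of 8 in H1703 (25.6%) and 1 of 7 in H460 (6.52%). With TMP195 it called 2 of 10 in H1755 (10.5%), 3 of 8 in H1703 (23.8%), 0 of 9 in H838 (7.46%) and 1 of 7 in H460 (5.15%). In H838 edgeR called 0 members with any treatment without the block. With the combination the unadjusted p was below 0.05 for 2 of them and for 3782 of 20624 genes. DESeq2 called 1 member and 1233 genes. With TMP195 the unadjusted p was below 0.05 for 1 member and 2796 genes, and DESeq2 called 0 members and 417 genes. With MYCi975 edgeR called 0 genes, and 0 members and 1541 genes had an unadjusted p below 0.05. DESeq2 called 0 members and 32 genes there.

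**Figure D2:**
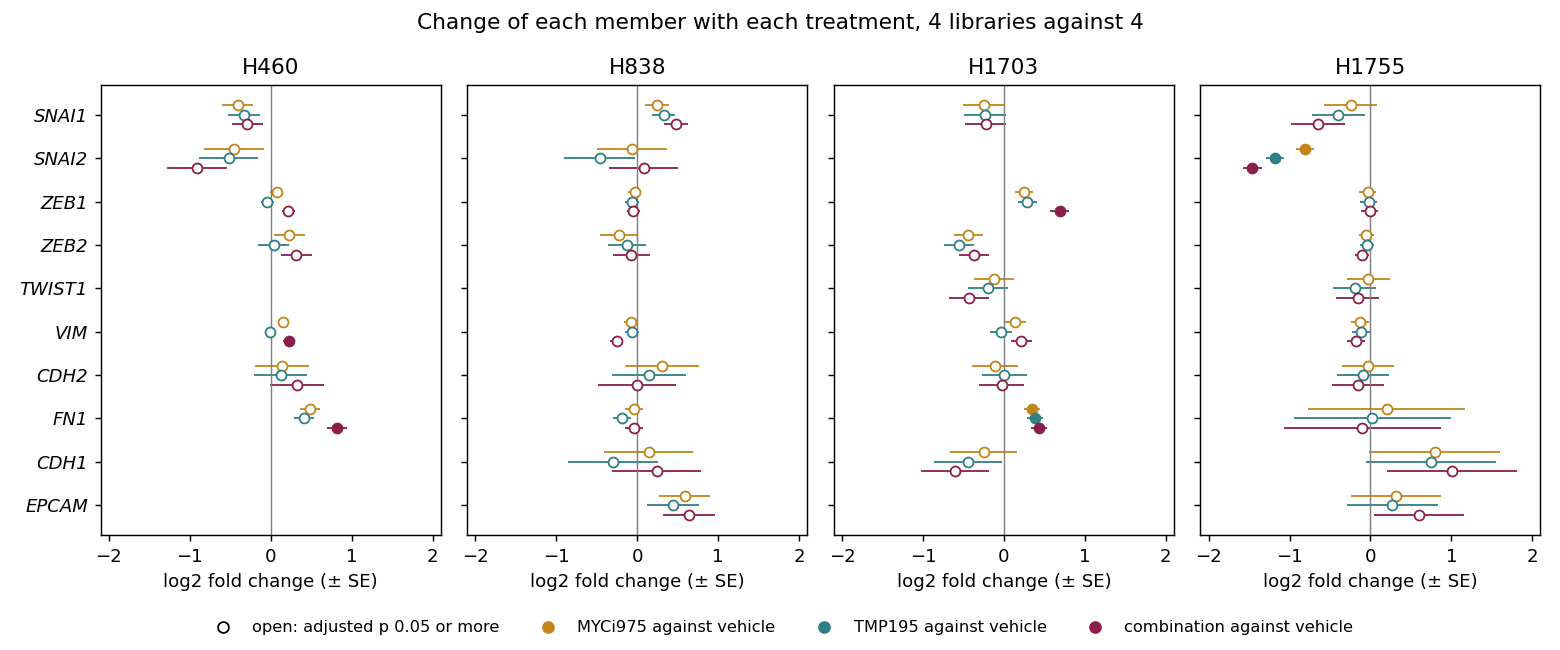
Log2 fold change ± standard error of each member against vehicle, by line, for MYCi975, TMP195 and the combination. Filled points have an adjusted p below 0.05 and untested members have no point. SNAI2 in H1755 lies left of 0 with all 3 treatments, furthest with the combination at -1.46, and the error bars of FN1, CDH1 and EPCAM in H1755 are wide.

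SNAI2 in H1755 had 21.6, 21.3, 27.8 and 22.6 CPM with MYCi975, 16.8, 17.7, 18 and 19.3 CPM with TMP195 and 15.3, 12.2, 15.9 and 16.1 CPM with the combination, against 36.6, 39.1, 41.8 and 45.7 CPM with vehicle. Every treated library lay below every vehicle library. SNAI2 fell by 0.81 ± 0.12 on the log2 scale with MYCi975 (adjusted p = 0.0269), by 1.18 ± 0.12 with TMP195 (adjusted p = 0.000222) and by 1.46 ± 0.12 with the combination (adjusted p = 1.73e-05). In 1 fit of all 64 libraries the call held with the combination and was lost with TMP195 (-1.19, adjusted p = 0.225) and MYCi975 (-0.81, adjusted p = 0.997). With any 1 library of the line left out, the adjusted p ranged over 1.39e-05 to 0.000149 for the combination and 0.000192 to 0.00239 for TMP195. With MYCi975 it ranged over 0.0173 to 0.0865 and the call was lost without MYCi975 replicate 1 or 2 or vehicle replicate 2, 3 or 4, at log2 fold changes of -0.78, -0.76, -0.83, -0.81 and -0.74.

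In H460, the other line with SNAI2 above 10 CPM, the libraries had 16.1, 17.1, 16 and 5.84 CPM with MYCi975, 15.1, 14.1, 16.6 and 6.62 CPM with TMP195 and 11.7, 14.1, 8.65 and 5.63 CPM with the combination, against 21.7, 18, 21.3 and 14.3 CPM with vehicle. Replicate 4 was the lowest library in all 4 groups. Every combination library lay below every vehicle library, but the change of -0.91 ± 0.37 was not called (adjusted p = 0.121), nor were those with MYCi975 (-0.45 ± 0.37, adjusted p = 0.812) or TMP195 (-0.52 ± 0.37, adjusted p = 0.797). With a term for the library sets the SNAI2 change was called with the combination (-0.97 ± 0.15, adjusted p = 4.21e-05), MYCi975 (-0.53 ± 0.14, adjusted p = 0.0249) and TMP195 (-0.58 ± 0.14, adjusted p = 0.0187). The combination's SNAI2 change was also called by DESeq2 (adjusted p = 0.0382). In the first set alone, which holds 1 H460 vehicle library, it was -0.90.

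In H1703 SNAI2 was at the edge of detection and did not pass the filter. The libraries held 1, 1, 0 and 0 reads with the combination, 4, 5, 2 and 0 with MYCi975 and 5, 4, 4 and 1 with TMP195, against 10, 9, 5 and 1 with vehicle. Each treated group overlapped vehicle. Without the filter the combination was called (adjusted p = 0.00956). In H838 SNAI2 ranged over 0.857 to 2.06 CPM with the combination and 0.539 to 1.66 CPM with vehicle, and the 95% interval of that change ran from -0.75 to 0.91 on the log2 scale.

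ZEB1 in H1703 had 129, 113, 116 and 158 CPM with MYCi975, 153, 119.8, 118 and 139 CPM with TMP195 and 192, 167, 145 and 201 CPM with the combination, against 118, 103, 110.5 and 101 CPM with vehicle. The combination and TMP195 libraries lay above all vehicle libraries, while MYCi975 replicates 2 and 3 lay within the vehicle range. ZEB1 rose by 0.69 ± 0.12 on the log2 scale with the combination (adjusted p = 0.000176, 2.51e-05 to 0.001 with any 1 library left out). The changes of 0.25 ± 0.11 with MYCi975 (adjusted p = 0.183) and 0.29 ± 0.11 with TMP195 (adjusted p = 0.122) were not called. Replicate numbers paired the H1703 libraries of these 2 comparisons, and with the replicate as a block both were called (adjusted p = 0.0336 and 0.014). ZEB1-AS1, which overlaps the ZEB1 start on the other strand and is counted with the uncertainty given above, rose in the same line with the combination (0.85 ± 0.19, adjusted p = 0.00156) and with MYCi975 (0.60 ± 0.19, adjusted p = 0.0469).

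In the other lines no ZEB1 change was called in the fit as designed. In H460 it had 88.6, 84.3, 83.4 and 100.3 CPM with the combination against 78.1, 74.8, 68.9 and 84.7 CPM with vehicle, which overlapped at vehicle replicate 4, and the change of 0.22 ± 0.08 was not called (adjusted p = 0.0863), though it was with the library set term (adjusted p = 0.0195). The 95% intervals of the combination's change ran from -0.21 to 0.11 in H838 and from -0.22 to 0.19 in H1755.

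ZEB2 in H1703 went the other way from ZEB1 in its values but was not called. Its libraries had 4.16, 4.52, 4.85 and 4.52 CPM with MYCi975, 3.37, 3.60, 4.99 and 4.62 CPM with TMP195 and 4.95, 4.88, 5.17 and 4.10 CPM with the combination, against 4.93, 4.43, 6.90 and 8.06 CPM with vehicle. All groups overlapped vehicle. The changes were -0.44 ± 0.18 with MYCi975 (adjusted p = 0.136), -0.56 ± 0.18 with TMP195 (adjusted p = 0.0638) and -0.37 ± 0.18 with the combination (adjusted p = 0.118). With the replicate block the first 2 were called (adjusted p = 0.0364 and 0.0108). In H460, H838 and H1755 no ZEB2 change was called, and the combination's values were 0.32 ± 0.19, -0.07 ± 0.23 and -0.11 ± 0.09.

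**Figure D3:**
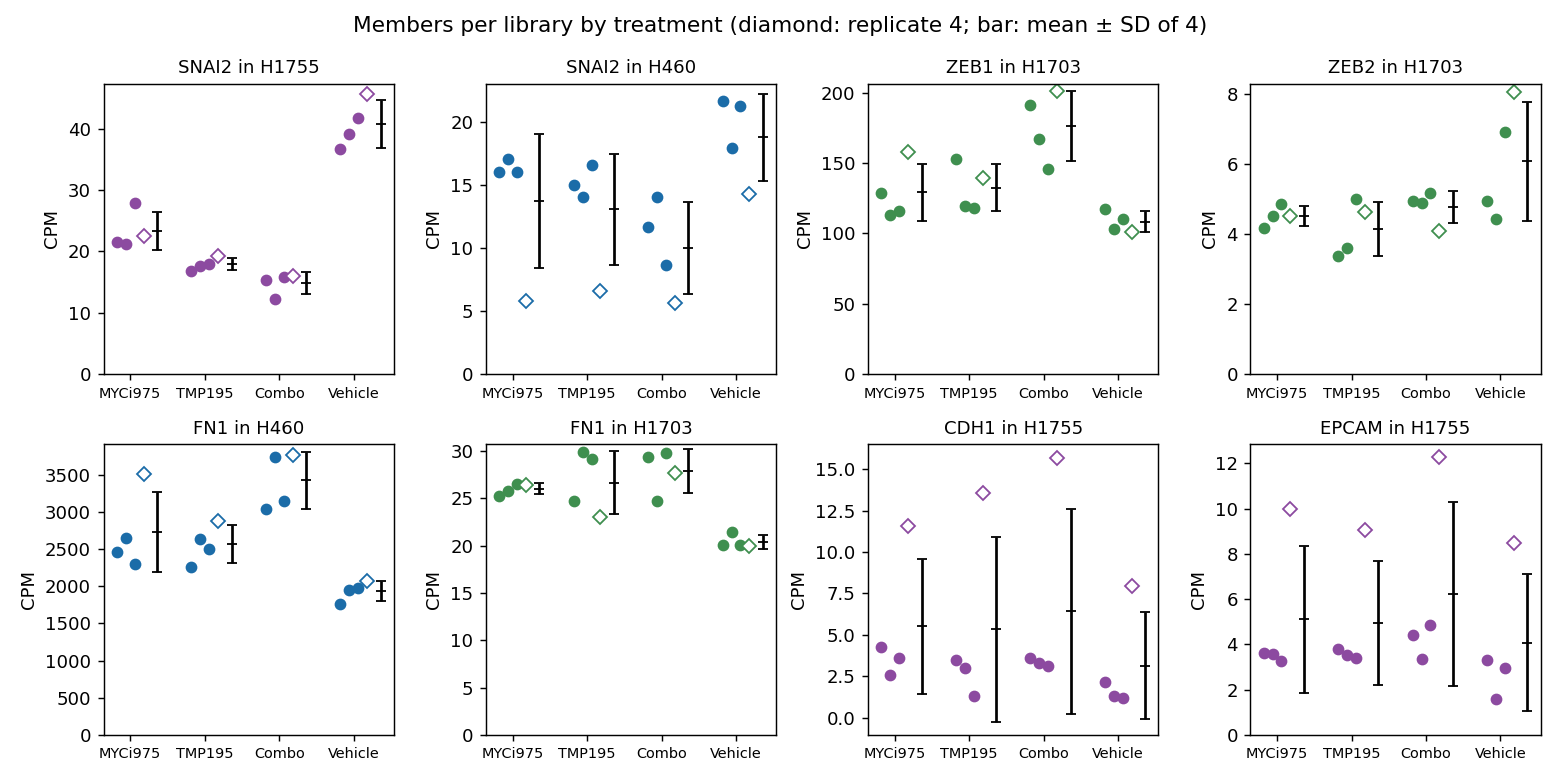
CPM per library for 8 pairs of member and line, with MYCi975, TMP195, the combination (Combo) and vehicle from left to right. Open diamonds are replicate 4 and black bars the mean ± SD of 4. All treated libraries of SNAI2 in H1755 lie below vehicle, all of FN1 in H460 and H1703 lie above it, and replicate 4 is the highest library of CDH1 and EPCAM in every H1755 group.

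SNAI1 and TWIST1 had no called change in any line in the fit as designed. SNAI1 in H838 had 4.46, 4.69, 4.66 and 5.68 CPM with the combination against 3.31, 3.36, 3.34 and 3.99 CPM with vehicle, without overlap, and the change of 0.48 ± 0.15 missed the threshold (adjusted p = 0.0804) but was called with the replicate block, where the numbers paired the libraries (adjusted p = 0.0215). In H1755 the SNAI1 change with the combination had the opposite sign at -0.65 ± 0.33 (adjusted p = 0.479, 0.00967 with the block), and it averaged 1.76 ± 0.928 CPM there with the combination and 2.76 ± 0.700 CPM with vehicle. TWIST1 in H1703 averaged 4.77 ± 1.16 CPM with the combination and 6.34 ± 2.06 CPM with vehicle (-0.43 ± 0.25, adjusted p = 0.185). In H1755 its change with the combination was -0.16 ± 0.26 (adjusted p = 0.92).

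FN1 was the member called in the most comparisons with treatment. In H460, the line with the highest FN1, the libraries had 2462, 2653, 2296 and 3509 CPM with MYCi975, 2265, 2645, 2499 and 2884 CPM with TMP195 and 3045, 3747, 3147 and 3766 CPM with the combination, against 1759.7, 1945, 1979 and 2076 CPM with vehicle. All 12 treated libraries lay above all 4 vehicle libraries. FN1 rose by 0.82 ± 0.12 on the log2 scale with the combination (adjusted p = 0.000549, 8.19e-05 to 0.00294 with any 1 library left out), a call that was lost in 1 fit of all 64 libraries at the same fold (0.82, adjusted p = 0.416). The changes with MYCi975 (0.49 ± 0.12, adjusted p = 0.0746) and TMP195 (0.41 ± 0.12, adjusted p = 0.166) were not called, but were with the replicate block, where the numbers paired the libraries (adjusted p = 0.00558 and 0.00843). DESeq2 called both as well (adjusted p = 0.00715 and 0.0469).

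FN1 in H1703, the line with the lowest FN1, had 25.3, 25.8, 26.6 and 26.4 CPM with MYCi975, 24.7, 29.9, 29.1 and 23 CPM with TMP195 and 29.4, 24.8, 29.8 and 27.7 CPM with the combination, against 20.1, 21.4, 20.03 and 19.999 CPM with vehicle. Again all 12 treated libraries lay above all vehicle libraries. FN1 rose by 0.35 ± 0.10 with MYCi975 (adjusted p = 0.0279), by 0.39 ± 0.10 with TMP195 (adjusted p = 0.017) and by 0.44 ± 0.10 with the combination (adjusted p = 0.00166) on the log2 scale. The first call was lost without any 1 of vehicle replicates 1, 3 and 4 or MYCi975 replicates 2, 3 and 4 (log2 fold changes of 0.33 to 0.34), and the second without vehicle replicate 1 (0.38), TMP195 replicate 2 (0.33) or TMP195 replicate 3 (0.33). With no filter the MYCi975 call was lost as well (adjusted p = 0.075). That of the combination held with any 1 library left out (adjusted p 0.00108 to 0.00706). In 1 fit of all 64 libraries all 3 were lost, at log2 fold changes of 0.35, 0.39 and 0.45 (adjusted p = 0.888, 0.874 and 0.643) for MYCi975, TMP195 and the combination.

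In H1755 the FN1 values split between replicate 4 and the others. Replicates 1 to 3 had 89.7, 85.6 and 97.6 CPM with MYCi975, 71.1, 73.9 and 79.8 CPM with TMP195 and 70.9, 73.6 and 75.5 CPM with the combination, against 85.2, 81.2 and 86.7 CPM with vehicle. Replicate 4 had 625, 567 and 511 CPM with the 3 treatments in that order, and 526 CPM with vehicle. The combination's change of -0.10 ± 0.97 was not called (adjusted p = 0.989). Each combination library lay below the vehicle library of the same number, and with the replicate block, where the numbers paired the libraries, the change was -0.16 ± 0.05 and was called (adjusted p = 0.021). Leaving out 1 library moved the FN1 change in H1755 between -1.44, without combination replicate 4, and 1.13, without vehicle replicate 4. In H838 FN1 changed by -0.04 ± 0.11 with the combination, with a 95% interval of -0.26 to 0.18.

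VIM in H460 had 1214, 1093, 1131 and 1198 CPM with the combination against 1002, 938, 1018 and 1024 CPM with vehicle, without overlap, and rose by 0.22 ± 0.06 on the log2 scale (adjusted p = 0.0271). The call was lost without vehicle replicate 1, 2 or 3 or combination replicate 1 or 4 (log2 fold changes of 0.19 to 0.23). It was also lost with no filter on low counts (adjusted p = 0.134) and in 1 fit of all 64 libraries (0.22, adjusted p = 0.238). In the first library set alone, which holds 1 H460 vehicle library, the VIM change was 0.14. In H838 the sign was opposite, with 417, 423, 456 and 401 CPM with the combination against 506, 509.7, 492 and 519.6 CPM with vehicle. These libraries did not overlap either, and the change of -0.25 ± 0.08 was not called (adjusted p = 0.1) except with the replicate block (adjusted p = 0.0201) and by DESeq2 (adjusted p = 0.0357). In H1755 the VIM change with the combination was -0.18 ± 0.11 (adjusted p = 0.615), and with the block it was called (adjusted p = 0.00209). The block also called VIM there with MYCi975 (-0.13 ± 0.04, adjusted p = 0.047).

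CDH2 had no called change in any line. In H1755, where it is abundant, it averaged 354 ± 116 CPM with the combination and 392 ± 165 CPM with vehicle, and the 95% interval of its change ran from -0.78 to 0.48. In H1703 the combination's change was -0.03 ± 0.28.

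The epithelial genes had no called change either in the fit as designed, although in H1755 the treated libraries had more of both than the vehicle library of the same number. CDH1 there had 4.27, 2.60, 3.60 and 11.6 CPM with MYCi975, 3.47, 3.0, 1.28 and 13.6 CPM with TMP195 and 3.62, 3.32, 3.09 and 15.7 CPM with the combination, against 2.16, 1.33, 1.16 and 7.93 CPM with vehicle. The groups overlapped through vehicle replicate 4, and the changes of 0.79 ± 0.81, 0.75 ± 0.80 and 1.01 ± 0.80 were not called (adjusted p = 1, 1 and 0.739). With the replicate block, where the numbers paired the libraries, CDH1 was called with MYCi975 (0.90 ± 0.19, adjusted p = 0.00212), with TMP195 (0.73 ± 0.19, adjusted p = 0.0107) and with the combination (1.03 ± 0.18, adjusted p = 0.000101). The library set term called it with MYCi975 and the combination (adjusted p = 0.0351 and 0.00363) but not with TMP195 (0.0964). The TMP195 change of CDH1 was -0.33 without TMP195 replicate 4 and 1.80 without vehicle replicate 4.

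EPCAM in H1755 had 4.42, 3.37, 4.86 and 12.3 CPM with the combination against 3.31, 1.57, 2.96 and 8.47 CPM with vehicle, which overlapped, and the change of 0.60 ± 0.55 was called only with the block (adjusted p = 0.00173) and with the library set term (adjusted p = 0.0118), not in the fit as designed (adjusted p = 0.795). In H1703 EPCAM did not pass the filter, with 38 reads over the combination libraries, 17 with MYCi975 and 12 with TMP195, against 7 with vehicle. The combination libraries had 0.423, 0.605, 0.209 and 0.278 CPM, all above the vehicle libraries at 0.0374, 0, 0.0798 and 0.147 CPM, and DESeq2, which applied no such filter, called it (adjusted p = 0.0248). In H838 CDH1 and EPCAM changed by 0.24 ± 0.55 and 0.64 ± 0.32 with the combination (adjusted p = 0.859 and 0.294), and in H1703 CDH1 changed by -0.60 ± 0.42 (adjusted p = 0.274). In H460 CDH1 held 7, 3 and 7 reads over the combination, MYCi975 and TMP195 libraries and 6 over the vehicle libraries, too few for a comparison.

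Whether the combination went beyond each agent alone was tested directly, and edgeR called 0 of 34 member tests against MYCi975 and 0 of 34 against TMP195. Unadjusted p-values below 0.05 numbered 4 and 6, and DESeq2 called 2 and 3. Over all genes tested the unadjusted p against MYCi975 was below 0.05 for 604 of 20218 in H1755 and 4353 of 20827 in H1703. In H838 it was for 1007 of 20624 and in H460 for 2657 of 21226. Against TMP195 the numbers were 415, 4895, 3082 and 3562 in that order of lines. DESeq2 called 70, 1311, 47 and 740 genes against MYCi975 and 1, 2057, 469 and 1493 against TMP195. Of all genes, the combination against MYCi975 called 0.0544% in H1755, 1.7% in H1703, 0.0242% in H838 and 1.06% in H460. Against TMP195 it called 4.87% in H1703, 0.0436% in H838, 3.91% in H460 and 0% in H1755, where the unadjusted p was below 0.05 for 415 genes. SNAI2 in H1755 changed by -0.65 ± 0.12 against MYCi975 (adjusted p = 0.0659). With the replicate block, where the numbers paired the libraries, that change was called (adjusted p = 3.65e-06; 3.19% of all genes were), as was FN1 in H1755 (-0.31 ± 0.05, adjusted p = 0.000303). ZEB1 in H1703 changed by 0.44 ± 0.11 against MYCi975 (adjusted p = 0.0549) and 0.40 ± 0.11 against TMP195 (adjusted p = 0.0533), and DESeq2 called both (adjusted p = 0.0134 and 0.023). FN1 in H460 changed by 0.33 ± 0.12 against MYCi975 (adjusted p = 0.249) and 0.41 ± 0.12 against TMP195 (adjusted p = 0.0845). The library set term called both FN1 differences in H460 (adjusted p = 0.0164 and 0.00281), and DESeq2 that against TMP195 (adjusted p = 0.0199). In the first set alone, which holds 1 H460 MYCi975 library, the FN1 difference from MYCi975 was 0.61.

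The lines differed in their response for 3 members. In a test of line by treatment over the 4 lines, the combination's change differed for SNAI2 (adjusted p = 0.0247), VIM (adjusted p = 0.0195) and ZEB1 (adjusted p = 0.00208), 3 of 10 members against 8.94% of all genes tested. SNAI2 changed by -1.46 ± 0.12 in H1755, -0.91 ± 0.37 in H460 and 0.08 ± 0.42 in H838. H1703, where SNAI2 was at the edge of detection, is also in the test, with a change of -3.35 ± 0.97 in the fit without the filter. Its part in the SNAI2 call was not tested. ZEB1 changed by 0.69 ± 0.12 in H1703, 0.22 ± 0.08 in H460, -0.01 ± 0.10 in H1755 and -0.05 ± 0.08 in H838, and VIM changed by 0.22 ± 0.06 in H460, -0.25 ± 0.08 in H838, -0.18 ± 0.11 in H1755 and 0.22 ± 0.13 in H1703. These calls were lost when some replicate numbers were left out. Without replicate 1 of every group none of the 3 was called (adjusted p = 0.199, 0.3 and 0.102 for SNAI2, VIM and ZEB1), nor without replicate 2 (0.194, 0.205 and 0.0971). Without replicate 3 ZEB1 alone was called (0.00992), and without replicate 4 all 3 were (0.0022, 0.016 and 0.00236 for SNAI2, VIM and ZEB1).

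For FN1 the test of line by treatment turned on replicate 4. Over all libraries the adjusted p was 0.777 with the combination. Without replicate 4 it was 1.5e-05, with the replicate block 1.41e-06 and with the library set term 8.12e-09. The block joins libraries by number in all 4 lines. By the correlation check the numbers did not pair the combination and vehicle libraries of H460 and H1703, so the block's value has that limit. With TMP195 no member differed between lines (1.02% of all genes did). The unadjusted p was below 0.05 for 2 members and for 2554 of 24977 genes, and DESeq2 called 0 members and 797 genes. Without replicate 4 FN1 (adjusted p = 0.000449) and SNAI2 (adjusted p = 0.0408) were called. That fit holds H838 TMP195 libraries of the second set only and H838 vehicle libraries of the first set only. In H838 it thus cannot tell treatment from library set. With MYCi975 edgeR and DESeq2 called 0 members, 0 had an unadjusted p below 0.05, and 0.004% of all genes were called.

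Genes of the same pathways were read from 9 lists, in which most calls without the block were with the combination in H460 and H1703. In H460, 24 of 91 tested list genes rose and 5 fell with the combination, where 9.72% of all genes rose and 5.98% fell. These counts are from a fit without a term for the library sets, which are not balanced there. In H1703 16 of 82 rose and 24 fell, where 19.9% of all genes rose and 18.5% fell. In H838 2 of 90 rose and 3 fell (2.29% and 0.955% of all genes), and in H1755 2 of 89 rose and 3 fell (1.23% and 0.46%). With MYCi975 5 rose and 0 fell in H460 (1.01% and 0.0754% of all genes) and 6 rose and 1 fell in H1703 (6.04% and 4.12%). None was called in H838 (0% and 0%) or H1755 (0.0594% and 0.00495%). With TMP195 1 rose and 1 fell in H460 (1.03% and 0.0989% of all genes) and 0 rose and 1 fell in H838 (0.417% and 0.155%). In H1703 2 rose and 5 fell with TMP195 (6.07% and 3.57%), and in H1755 0 rose and 1 fell (0.351% and 0.0791%). With the block, where the numbers paired the libraries, the combination's counts were 17 rising and 23 falling in H1755 (12% and 12.3% of all genes) and 10 and 15 in H838 (8.31% and 6.57%). With MYCi975 9 rose and 10 fell in H1755 (4.72% and 4.51% of all genes), 13 and 12 in H1703 (13.5% and 12.1%) and 18 and 1 in H460 (4.93% and 1.59%). With TMP195 10 rose and 15 fell in H1755 (5.47% and 5.02% of all genes), 13 and 13 in H1703 (12.9% and 10.9%), 4 and 13 in H838 (3.81% and 3.65%) and 10 and 3 in H460 (3.79% and 1.36%).

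Of the epithelial junction and surface genes, 5 of 18 rose and 0 fell in H460 with the combination (9.72% and 5.98% of all genes). Their median change was 0.22 against -0.03 over all genes tested. Those that rose included the tight junction gene OCLN (1.82 ± 0.30, adjusted p = 0.00112), the desmosomal plaque gene PKP2 (1.21 ± 0.13, adjusted p = 6.92e-05) and the claudin gene CLDN1 (1.04 ± 0.16, adjusted p = 0.000732). PKP2 also rose there with MYCi975 (0.73 ± 0.13, adjusted p = 0.0192). The keratins KRT19 (0.65 ± 0.08, adjusted p = 0.000209) and KRT18 (0.44 ± 0.09, adjusted p = 0.00395), filaments of simple epithelium, rose with the combination, 2 of 6 tested. In the same cells CDH1 itself was near 0 and FN1 and VIM rose, and the called rises thus lay in both epithelial and mesenchymal genes.

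Of the receptors and plaque genes through which cells hold fibronectin, 5 of 9 rose and 1 fell in H460 with the combination. Over all genes 9.72% rose and 5.98% fell, and the median change of the 9 was 0.36. ITGA3, an integrin subunit, rose by 1.87 ± 0.22, adjusted p = 0.000119 with the combination, and in H1755 by 1.13 ± 0.16, adjusted p = 0.00205. With MYCi975 ITGA3 rose in H460 (1.15 ± 0.22, adjusted p = 0.0257) and in H1703 (0.43 ± 0.09, adjusted p = 0.00496). In H1703 the combination raised 2 of 11 of these genes and lowered 4, among them VCL, which encodes vinculin (-0.86 ± 0.14, adjusted p = 0.000133). Of all genes in that line, 19.9% rose and 18.5% fell with the combination.

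TGF-beta signalling is a classical inducer of the SNAI and ZEB factors. In H460 6 of its 18 listed genes rose and 1 fell with the combination (9.72% and 5.98% of all genes). TGFB2, a ligand, was at 1.15 ± 0.25 there (adjusted p = 0.00638). In H838 0 rose and 2 fell (2.29% and 0.955% of all genes), with TGFB2 at -1.23 ± 0.22, adjusted p = 0.00648. In H1703 5 rose and 5 fell, beside 19.9% and 18.5% of all genes, and in H1755 0 rose and 1 fell (1.23% and 0.46%).

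The counts that follow stand beside 19.9% of all genes rising and 18.5% falling in H1703 with the combination, and 9.72% and 5.98% in H460. Of the other factors of the programme, 4 of 7 fell and 1 rose in H1703 with the combination, at a median change of -0.59 against 0.02 over all genes tested. Those that fell included SNAI3 (-0.95 ± 0.23, adjusted p = 0.00363), TWIST2 (-0.86 ± 0.23, adjusted p = 0.00658) and TCF3 (-0.78 ± 0.18, adjusted p = 0.00201), which encodes a partner of bHLH factors. Mesenchymal matrix and cytoskeleton genes were mixed in that line, with 3 of 18 rising, such as COL5A1 (1.27 ± 0.22, adjusted p = 0.000228), and 7 falling, such as THY1 (-1.03 ± 0.26, adjusted p = 0.00396). In H460 3 of 20 of them rose and 2 fell, and COL1A1 was at -1.57 ± 0.38, adjusted p = 0.0124. Of the epithelial identity factors, 1 of 6 tested was called in H460, KLF5, which rose (0.50 ± 0.08, adjusted p = 0.000975) while the median of the 6 was -0.22. In H1703 1 of 4 was called, FOXA1, a pioneer factor, which fell (-0.80 ± 0.15, adjusted p = 0.000389) while the median of the 4 was 0.25. Among the catenins and other partners of cadherins, 2 of 5 tested rose in H460, CTNNA1 (0.48 ± 0.09, adjusted p = 0.0028) and AFDN (0.34 ± 0.07, adjusted p = 0.00376), with a median of -0.13 over the 5. In H1703 1 of 4 was called, CTNNB1, which encodes beta-catenin and fell (-0.34 ± 0.08, adjusted p = 0.00311), with a median of 0.03.

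**Figure D4:**
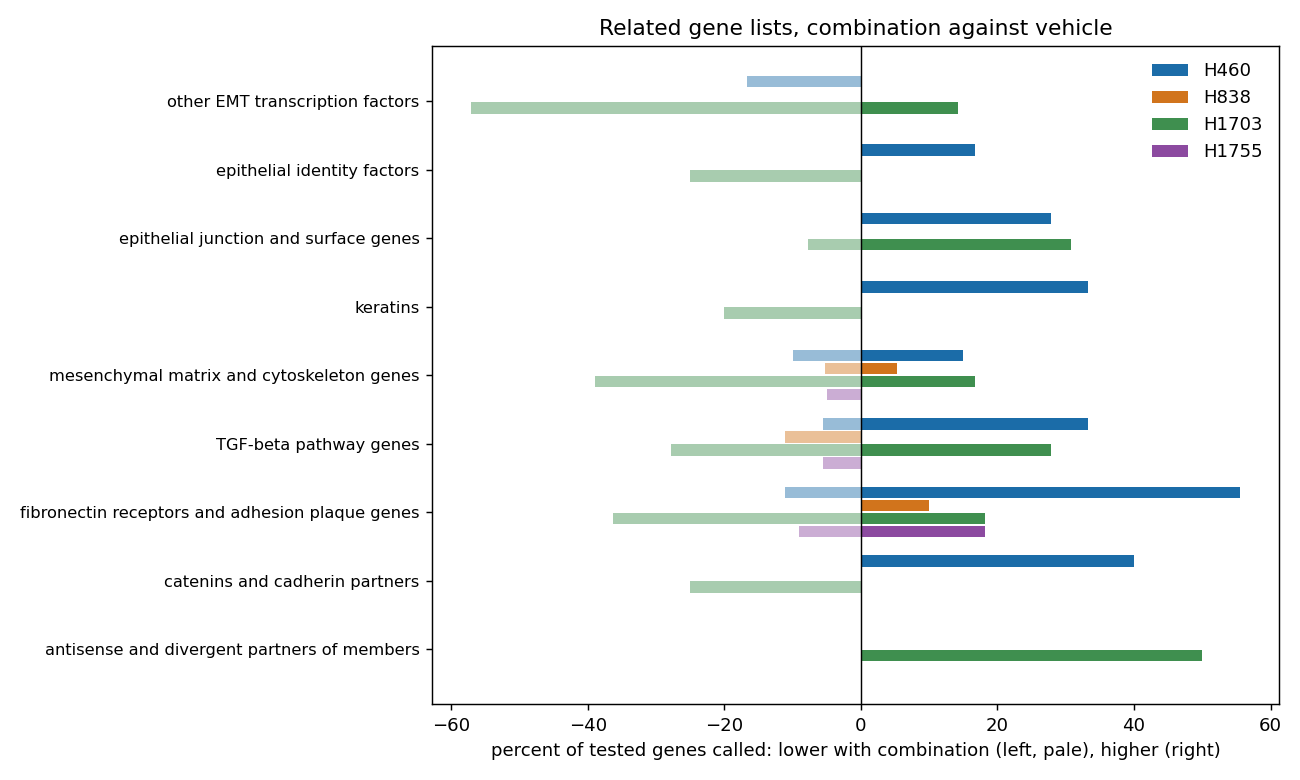
Percent of the tested genes of each of 9 lists called with the combination against vehicle, by line. Bars to the right (dark) are genes higher with the combination and bars to the left (pale) lower ones. H460 bars lie mostly to the right, H1703 bars on both sides, and the H838 and H1755 bars are short or missing.

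The genes whose group means ran most like a member's were picked by the Pearson correlation of log2 CPM over the 16 group means, among 15124 other genes with a symbol and a mean of at least 1 CPM. The points share lines and libraries, so these values mainly carry differences between lines. The closest were PPIF for SNAI2 (0.991), SDAD1 for ZEB1 (0.984), TMTC1 for ZEB2 (0.996), TRIM58 for TWIST1 (0.995), EIF2B1 for SNAI1 (0.965), CDH13-AS2 for FN1 (0.994), MT1E for CDH2 (0.995), PINK1 for CDH1 (0.991) and SLC9A8 for EPCAM (0.990). For VIM the closest was its own antisense partner VIM-AS1 (0.995), followed by CNRIP1 (0.987).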

How the data were processed

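The authors deposited raw counts of reads in each gene, with a column for every sample. They used Trimmomatic, STAR and featureCounts on GRCh38, per the submitters' processing notes, whose versions and strand setting are not given in the sources used here. Column-purified RNA went into a stranded total RNA kit, per the labels' protocols. Positions and exon lengths came from GENCODE 29. Columns were matched to samples by line, treatment and replicate.

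The members and lists were chosen with earlier results of these data known. In edgeR 4.0.16 under R 4.3.3, low counts were removed by filterByExpr with the groups given, and TMM set the scaling. Each line was fitted on its 16 libraries by quasi-likelihood with a mean for each of 4 groups, the 16 vehicle libraries had 1 fit for the 6 pairs of lines, and each treatment 1 fit of line by treatment. P-values were adjusted over all genes tested. The standard error is the size of the log2 fold change over the root of its F. Nothing in the labels says that replicates came from separate cultures, so p-values reflect spread between samples that may be technical. The fits were tested on simulated data before use.

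All 10 members were described. From each list the text names at most the 3 called genes with the largest changes per treatment and a mean of at least 1 CPM, and not all of these. Alternatives were RLE size factors, no filter, DESeq2 1.42.0, the replicate as a block, a term for library set, the first set alone, scaling that leaves out mitochondrial and abundant non-coding RNA, 1 fit of all 64 libraries, and leaving out libraries. Figures used matplotlib 3.10.9 in Python 3.11.15.

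Replicate numbers come from the sample titles, and no label gives a shared day or culture behind them. They were taken to pair samples where the deviations of libraries of 1 number from their group means always correlated above 0.1. Libraries of unlike numbers were not compared, and a replicate 4 that stands apart in every group raises all 4 correlations. Passing the check thus does not show that replicates 1 to 3 are matched by number. For the combination against vehicle in H1755 the values were 0.415, 0.407, 0.444 and 0.846 for replicates 1 to 4. The lowest correlation was 0.407 over all comparisons in H1755, and for the single agents against vehicle 0.903 in H460 and 0.139 in H1703. In H460 the vehicle, MYCi975 and TMP195 libraries of the same number are of the same library set. The check there thus cannot tell a shared number from a shared set. H460 combination replicate 2, of another set than vehicle replicate 2, gave -0.723 with it. In H838 the lowest correlation was 0.126 and 0.158 for TMP195 and the combination against vehicle and 0.105 for the combination against TMP195. There TMP195 replicates 1 to 3 are of another library set than vehicle replicates 1 to 3. Elsewhere the numbers did not pair the samples by this check.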

Additional observations from a re-analysis of the deposited data

Results flagged for a closer look

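The responses of SNAI2, VIM and ZEB1 to the combination differed between the 4 lines in the test of line by treatment (adjusted p = 0.0247, 0.0195 and 0.00208, edgeR). The changes of each by line stand in the report, and no explanation was tested.

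Within groups of 4 libraries, 32 of 159 sets of a member, line and treatment had 1 library further from the rest than Dixon's 95% limit allows. Chance flags about 1 in 20 groups, and here it was 20.1%. In 26 of the 32 the library was replicate 4, and 14 of those were in H1755. Values below are of replicate 4 unless another is named.

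In H1755 the high values of FN1 were 625 CPM with MYCi975, 567 CPM with TMP195 and 511 CPM with the combination, and 526 CPM with vehicle. CDH2 was high at 550 CPM with TMP195 and 637 CPM with vehicle. EPCAM was high at 9.97 CPM with MYCi975, 9.05 CPM with TMP195 and 12.3 CPM with the combination, and CDH1 at 15.7 CPM with the combination and 7.93 CPM with vehicle. ZEB1 was low at 120.4 CPM with TMP195 and 119 CPM with vehicle, and TWIST1 at 5.96 CPM with the combination.

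In H838 CDH1 was high at 11.3 CPM with MYCi975, 8.76 CPM with TMP195 and 13.5 CPM with the combination, and 8.53 CPM with vehicle. ZEB2 was low at 36.8 CPM with the combination and 45.2 CPM with vehicle, VIM at 432 CPM with MYCi975 and 414 CPM with TMP195, and SNAI1 was high at 3.99 CPM with vehicle. FN1 was low at 22.6 CPM with TMP195 in replicate 2, and TWIST1 high at 0.246 CPM with vehicle in replicate 3.

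In H460 SNAI2 was low at 5.84 CPM with MYCi975 and TWIST1 was at 0 CPM with TMP195, against a range of single reads. TWIST1 was high at 0.0509 CPM with the combination in replicate 3, which is 1 read, and EPCAM low at 0.0914 CPM with TMP195 in replicate 2. In H1703 SNAI2 was low at 0.0361 CPM with TMP195, FN1 high at 21.4 CPM with vehicle in replicate 2, and CDH1 low at 0.598 CPM with vehicle in replicate 1.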

How the results depend on the processing

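No change called in the fit as designed changed sign under any alternative run, and the median of all genes moved by at most 0.030 on the log2 scale with other scalings and 0.053 in 1 fit of all 64 libraries. In H1755, changes that were called only under other settings did change sign when 1 library was left out. The FN1 change with the combination (-0.10) ranged over -1.44 to 1.13, and was 0.16 without combination replicate 1, 0.16 without replicate 2 and 0.15 without replicate 3. FN1 with the combination against MYCi975 ranged over -1.64 to 1.02, which was without MYCi975 replicate 4, and CDH1 with TMP195 over -0.33, which was without TMP195 replicate 4, to 1.80. Of the 134 changes called under no setting, 79 changed sign under at least 1 alternative, 37 of them beyond leaving out 1 library. The counts of calls did depend on how the spread was estimated. With the replicate block the members called numbered 7 with MYCi975, 6 with TMP195 and 17 with the combination (main 2, 2 and 5), 4 and 5 for the combination against MYCi975 and TMP195 (main 0 and 0), and 2, 5 and 7 for differences between lines with MYCi975, TMP195 and the combination (main 0, 0 and 3). These block counts include comparisons where the numbers did not pair the samples, and where they did the block changed no call beyond those given in the report. Calls over all genes rose with the block as well. With the combination it called 4900 of 20218 genes in H1755 and 10515 of 20827 in H1703 (main 341 and 7986). In H838 it called 3067 of 20624 and in H460 6643 of 21226 (main 669 and 3334). For line differences it called 870, 5117 and 6828 genes with MYCi975, TMP195 and the combination (main 1, 255 and 2163). With the library set term the counts were 5, 6 and 11 against vehicle, 4 and 4 against the single agents, and 3 and 7 for line differences with TMP195 and the combination. Over all genes the set term called 3030 with the combination in H1755, 9547 in H1703, 3651 in H838 and 6685 in H460. For line differences it called 2142 genes with TMP195 and 6612 with the combination. DESeq2 called 4 with TMP195, 9 with the combination, and 2 and 3 against the single agents. Over all genes it called 715 with the combination in H1755, 8114 in H1703, 1233 in H838 and 3921 in H460. It gave no adjusted p for FN1 between lines in any pair. With no filter 1 was called with MYCi975 and 1 against each single agent. For the first set alone no counts are given, since H460 was left with 1 library each of vehicle, MYCi975 and TMP195. H838 had no TMP195 library in that set, so its TMP195 comparisons could not be fitted there. In 1 fit of all 64 libraries 0 were called with MYCi975 and 0 with TMP195, and 1 against each single agent. That fit ended 7 of the 9 calls against vehicle, at folds close to those of the fit as designed, and left SNAI2 in H1755 and ZEB1 in H1703 with the combination. The cause was not tested. Leaving out 1 library gave 1 to 3 calls with MYCi975, 1 to 3 with TMP195, 4 to 7 with the combination, 0 to 1 and 0 to 2 against the single agents and 47 to 52 between lines, and leaving out 1 replicate number gave 0, 0 to 2 and 0 to 4 line differences. Low counts limit SNAI2 in H1703, TWIST1 in H460 and H838, CDH1 in H460 and EPCAM in H460 and H1703.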
